A study of Caenorhabditis elegans with 2 samples.

Results

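The genes described here encode 6 contractile proteins of the worm's pharyngeal muscle: the myosin heavy chain genes myo-1, myo-2 and myo-5 and the troponin genes tnc-2, tni-4 and tnt-4. They were taken from a list of gene names, chosen with earlier results of these data known. All 6 were found among the 19973 protein-coding genes annotated on the 6 chromosomes. Binding of the transcription factor PHA-4 was mapped by ChIP-seq, in which DNA held by a precipitated protein is sequenced, in whole Caenorhabditis elegans at the fourth larval stage (L4), in 1 group of 2 biological replicates. Both replicates were worms of strain OP37, a mixed-sex population of genotype unc-119(ed3) III with the insertion wgIs37, whose tagged product the labels call eGFP-pha-4 and whose antibody target they give as pha-4. No untagged or untreated group was analysed here, so no condition could be compared with another. Whole worms mix the pharynx with every other tissue, and binding in few cells cannot be told apart from weak binding in many. The lists hold no expression values, so the label of pharyngeal muscle rests on what is known of the genes and was not checked in these data.

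PHA-4 is a forkhead transcription factor of the FoxA family that specifies the cells of the pharynx, the pumping organ through which the worm feeds. Pharyngeal muscle builds its thick filaments from its own myosin heavy chains, MYO-1 and MYO-2, while body wall muscle uses UNC-54 and MYO-3. Contraction is switched by troponin on the thin filament, where troponin C binds calcium, troponin I blocks the interaction with myosin and troponin T ties the complex to tropomyosin. Enhancer studies of myo-2 placed it under the control of PHA-4 together with CEH-22, a homeodomain protein of the NK-2 class.

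For each gene, summits were read in a search window made of the gene body and 2000 bp upstream of each transcript 5' end. The pooled list, called on both replicates together, held 30000 regions, peaks and background together, and the replicates' own lists held 21039 and 20807. Signal is the authors' value for each region and has no stated scale, so values are read within a list, and rank counts from the strongest region of that list. The authors' list after filtering by irreproducible discovery rate (IDR), a measure of how alike regions rank in replicates, held the strongest 1484 pooled regions, down to a signal of 25.9. In the pooled list 99.7% of regions were 310 bp wide with the summit at the middle, so a summit is a position called at that width.

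PHA-4 regions with a deposited q of 0.05 or lower lay at 5 of the 6 genes, all but tnc-2, and below the IDR list. None of the 6 genes had an IDR summit in its window, while 1735 of the 19973 protein-coding genes (8.69%) had one. With so few genes a count of 0 does not set them below that share. The rule of 3 divided by the number of genes would put the upper limit of the share at 50%. The rule is rough for so few genes, and these 6 are a fixed list and not a random draw, so that limit is only a guide. All 6 had a summit of the pooled list, which mixes peaks with background, against 63.3% of protein-coding genes. At the q limit, which was chosen after seeing the data, the 5 of 6 stood against 46.3%. Of the 26 pooled regions in the 6 windows, 11 had a higher q (42.3%), as did 45% of all pooled regions. A summit among the strongest 10000 pooled regions lay at 5 of the 6, all but tnc-2, against 35.2%. Because the 6 were chosen with earlier results of these data known, the counts and medians set against all genes are a description only. The same 5 genes had a pooled summit with a summit in both replicates within 150 bp, against 30.3%. That count depended on the settings: it was 2 (myo-2 and tni-4) with summits matched within 50 bp, against 21.1% of genes, and 3 (myo-2, tni-4 and tnt-4) in a promoter window from 1000 bp upstream to 200 bp downstream of a 5' end, against 22%. In this promoter window 5 of the 6 had a pooled summit, against 45% of genes. The median of the strongest pooled signal per gene was 14.8 for the 6 genes and 4.01 over all protein-coding genes. Here and in the medians of strongest signal below, a gene with no region in the window counted as 0. The windows of the 6 were longer, with a median of 7368 bp against 4027 bp. With 2000 bp of upstream sequence alone, the medians were 14.8 and 2.79. Counted per length, the windows of the 6 held 0.590 pooled regions per kb and those of all genes 0.318.

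**Figure D1:**
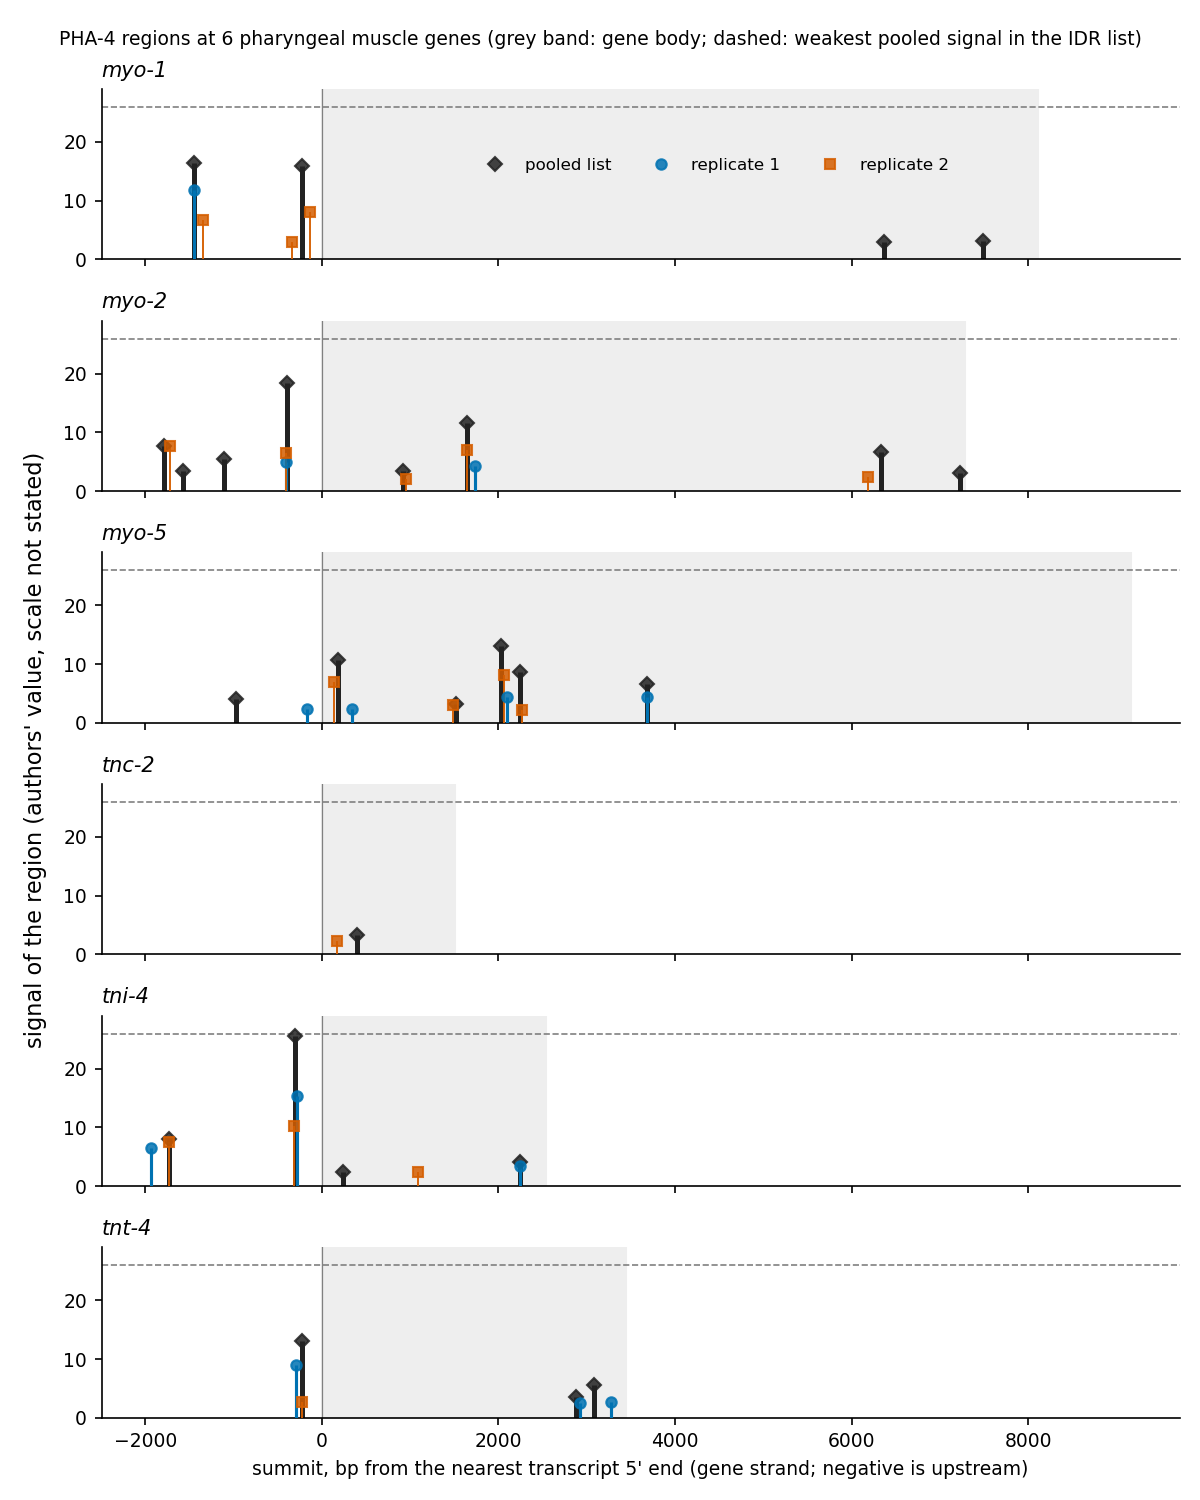
Signal of every region with a summit in the search windows of the 6 genes (vertical axis, the authors' value) against the summit's distance from the nearest transcript 5' end in bp (horizontal axis), for the pooled list and each replicate. Grey bands are gene bodies and the dashed line is the weakest pooled signal in the IDR list, 25.9; the region 308 bp upstream of tni-4 comes nearest to it.

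The gene myo-1 (WBGene00002348), at chrI:7258946-7267057 on the minus strand, encodes a pharyngeal myosin heavy chain. It had 2 upstream regions of nearly equal pooled signal. The farther one, at chrI:7268346-7268655 with its summit 1444 bp upstream, had a pooled signal of 16.4 (rank 3586), 11.9 in replicate 1 and 6.69 in replicate 2. The nearer one, at chrI:7267126-7267435 and 224 bp upstream, had a pooled signal of 15.9 (rank 3758). Replicate 2 listed it with 8.04, its summit 94 bp away, and a weaker region of 3.01 on the other side, 336 bp upstream of the gene. Replicate 1 listed no region within 150 bp. The nearer region thus had a listed match in replicate 2 alone, while the farther one was matched in both. The farther region's replicate 2 summit lay 93 bp from the pooled one, so it had no match in both replicates within 50 bp. What each replicate added to the pooled signal was not measured. The remaining pooled regions lay in coding exons 6 and 9 with signals of 2.91 and 3.18 and had no match in either replicate. No other protein-coding gene had a window that held any of these summits.

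The gene myo-2 (WBGene00003514), at chrX:12468061-12475348 on the plus strand, encodes the other pharyngeal myosin heavy chain and had the most regions, 8 in the pooled list. Its strongest, at chrX:12467507-12467816 with the summit 399 bp upstream, had a pooled signal of 18.3 (rank 3019). Replicate 1 gave it 4.93 (rank 8460) and replicate 2 gave it 6.42 (rank 5229), with summits 5 and 12 bp from the pooled one. The summits of the 3 lists therefore lay closer together here than at the upstream regions of myo-1. The region also lay 745 bp from a 5' end of cdf-2, a cation diffusion facilitator gene, inside its promoter window, and over the non-coding RNA genes T18D3.10 and T18D3.14, so it cannot be given to myo-2 alone. A further region in the intron after exon 6, 1644 bp into the gene at chrX:12469550-12469859, had a pooled signal of 11.6, 4.25 in replicate 1 and 7.02 in replicate 2. This intronic region lay in no other protein-coding gene's window.

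The sequences at these 2 myo-2 summits are shown because they hold the gene's strongest upstream and intronic regions. Each runs 75 bp to either side of the pooled summit in the RefSeq genome of WBcel235 (ce11), 5′ to 3′ on the gene's strand. Capitals mark a forkhead heptamer on either strand, that is any of the 16 sequences that read T, then A or G, then TT, then G or T, then A or G, then C or T, the published consensus for PHA-4.
myo-2 upstream, chrX:12467587-12467737: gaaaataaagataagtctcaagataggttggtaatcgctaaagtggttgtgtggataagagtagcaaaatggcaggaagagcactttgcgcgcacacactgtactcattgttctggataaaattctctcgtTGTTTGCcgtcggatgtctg
myo-2 intron, chrX:12469630-12469780: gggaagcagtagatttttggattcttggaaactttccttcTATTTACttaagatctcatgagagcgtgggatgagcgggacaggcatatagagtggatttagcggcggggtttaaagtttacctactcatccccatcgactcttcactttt
The upstream sequence holds TGTTTGC centred 59 bp from the summit towards the gene, 340 bp upstream of the 5' end. It also holds the NK-2 core AAGTG on either strand 2 times within 50 bp of the summit. In the intronic sequence the heptamer is centred 32 bp from the pooled summit. The replicate 2 summit of this region lay 2 bp from the pooled one and had a heptamer within 50 bp. That of replicate 1 lay 90 bp away and had none.

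The other myo-2 regions were weaker. A region 1787 bp upstream (pooled signal 7.66) and one 1574 bp upstream (3.39) lay in the body of cdf-2, and both matched the same region of replicate 2 (7.69) and none of replicate 1. That region of replicate 2 was also the strongest in the myo-2 window in that list, so the strongest replicate 2 value lay elsewhere than the strongest pooled one. A region 1103 bp upstream (5.48), 41 bp from the 5' end of cdf-2, had no match in either replicate. In the gene body, regions in coding exon 4 (3.34) and in the intron after exon 10 (6.59) matched replicate 2 alone. The region in the 3' UTR (2.998) matched neither.

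The gene myo-5 (WBGene00019064), at chrV:8108970-8118131 on the plus strand, encodes a further myosin heavy chain. Its strongest regions lay inside the gene, and its strongest upstream region, 977 bp from the 5' end, had a pooled signal of only 4.06 and no match in either replicate. The strongest, at chrV:8110840-8111149 in the intron after exon 4 and 2025 bp from the 5' end, had a pooled signal of 13.1 (rank 4980). It had 4.46 in replicate 1 (rank 9539) and 8.11 in replicate 2 (rank 3712). In the next exon, at 2242 bp, a neighbouring region of signal 8.65 matched the same replicate 1 region and a replicate 2 region of 2.26. The 2 pooled regions thus shared a single replicate 1 region, 76 and 141 bp from their summits. A region in the first intron, 188 bp from the 5' end at chrV:8109003-8109312, had a pooled signal of 10.7 and 6.89 in replicate 2. Replicate 1 listed regions of 2.26 and 2.29 to either side of it, at 163 bp upstream and 341 bp downstream of the 5' end, neither within 150 bp of its summit. Regions in coding exon 4 (3.27) and the intron after exon 8 (6.55) each matched 1 replicate.

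The intronic summits of myo-5 are shown because the gene's strongest regions lay there and not upstream. The windows are again 151 bp on the gene's strand, 5′ to 3′, with forkhead heptamers in capitals.
myo-5 first intron, chrV:8109083-8109233: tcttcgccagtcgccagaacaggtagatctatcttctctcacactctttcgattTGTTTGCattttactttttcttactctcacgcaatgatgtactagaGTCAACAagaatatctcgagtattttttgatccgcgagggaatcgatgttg
myo-5 intron after exon 4, chrV:8110920-8111070: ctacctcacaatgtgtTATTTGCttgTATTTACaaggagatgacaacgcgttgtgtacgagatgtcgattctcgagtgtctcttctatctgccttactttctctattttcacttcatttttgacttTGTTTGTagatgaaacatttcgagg
In the first intron, TGTTTGC is centred 18 bp from the summit towards the 5' end and a heptamer on the opposite strand lies 28 bp to the other side. At the region of exon 4's intron the heptamers are centred 56 and 46 bp from the summit on the 5' side and 54 bp on the 3' side.

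Among the troponins, tni-4 (WBGene00006586), at chrIV:5204591-5207124 on the plus strand, encodes troponin I and had the strongest region of all 6 genes. That region, at chrIV:5204128-5204437 with its summit 308 bp upstream, had a pooled signal of 25.6 and rank 1546, which is 62 places below the end of the IDR list. It had 15.3 in replicate 1 (rank 1295) and 10.2 in replicate 2 (rank 2459). The strongest 1484 regions of replicate 1 therefore included it, and those of replicate 2 did not. A second upstream region, 1731 bp from the 5' end, had a pooled signal of 8.02 and 7.51 in replicate 2, while replicate 1 listed a region of 6.52 at 1940 bp upstream, outside the matching distance. In the gene body, regions in the first intron (2.47) and coding exon 4 (4.04) were weak. The former, at rank 29538, had no match, and the latter, at rank 19059, had 3.47 in replicate 1. Replicate 2 also listed a region of 2.41 in coding exon 2 that no pooled summit matched. No other protein-coding gene's window held any of these summits.

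The gene tnt-4 (WBGene00006589), at chrV:1989471-1992918 on the minus strand, encodes troponin T. Its upstream region, at chrV:1992990-1993299 with the summit 227 bp from the 5' end, had a pooled signal of 13.2 (rank 4952), 8.90 in replicate 1 (rank 3793) and 2.77 in replicate 2 (rank 14956). The replicates' values, each on its own list's scale, differed by 1.68 in log2, more than at any other region of the 6 genes that both replicates listed. The region stood in the weaker part of replicate 2's list. Within the gene, a region in the intron after exon 5 (5.65) had no match and one in coding exon 5 (3.57) matched replicate 1 alone. Replicate 1 also listed a region of 2.72 in the 3' UTR that no pooled summit matched.

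The gene tnc-2 (WBGene00006583), at chrII:10466852-10468358 on the plus strand, encodes troponin C and stood apart from the other members. Its only pooled region, at chrII:10467099-10467408 in coding exon 3, 402 bp from the 5' end, had a signal of 3.28, rank 23242 and a deposited −log10 q of 0.549. Neither replicate listed a summit within 150 bp. Replicate 1 listed none in the whole window, and replicate 2 listed a region of 2.34 in coding exon 2 at rank 18013. No list held a summit in the 2000 bp upstream of tnc-2.

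The upstream summits of tni-4 and tnt-4 are shown because they were the strongest of the troponin genes, in windows of 151 bp on the gene's strand, 5′ to 3′, with forkhead heptamers in capitals.
tni-4 upstream, chrIV:5204208-5204358: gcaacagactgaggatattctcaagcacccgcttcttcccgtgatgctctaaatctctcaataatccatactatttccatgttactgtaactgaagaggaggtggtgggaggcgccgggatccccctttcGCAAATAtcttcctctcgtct
tnt-4 upstream, chrV:1993070-1993220: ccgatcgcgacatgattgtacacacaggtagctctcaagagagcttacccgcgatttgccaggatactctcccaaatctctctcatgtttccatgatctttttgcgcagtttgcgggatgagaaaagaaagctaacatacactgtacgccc
At tni-4 a single heptamer, on the strand opposite to the gene, is centred 58 bp from the pooled summit and 250 bp upstream of the 5' end. At tnt-4 these letters are not in the window, and the nearest heptamer is centred 256 bp away.

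By strongest pooled signal the genes stood in the order tni-4 (25.6), myo-2 (18.3), myo-1 (16.4), tnt-4 (13.2), myo-5 (13.1) and tnc-2 (3.28). In replicate 1 the order was tni-4 (15.3), myo-1 (11.9), tnt-4 (8.90), myo-2 (4.93) and myo-5 (4.46), with no region at tnc-2. In replicate 2 it was tni-4 (10.2), myo-5 (8.11), myo-1 (8.04), myo-2 (7.69), tnt-4 (2.77) and tnc-2 (2.34). In both replicates tni-4 was first and tnc-2 last or not listed, and myo-1 stood above myo-2 and tnt-4. The order among myo-2, myo-5 and tnt-4, and that of myo-1 and myo-5, differed between the replicates. With 2 replicates no test between genes was run.

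**Figure D2:**
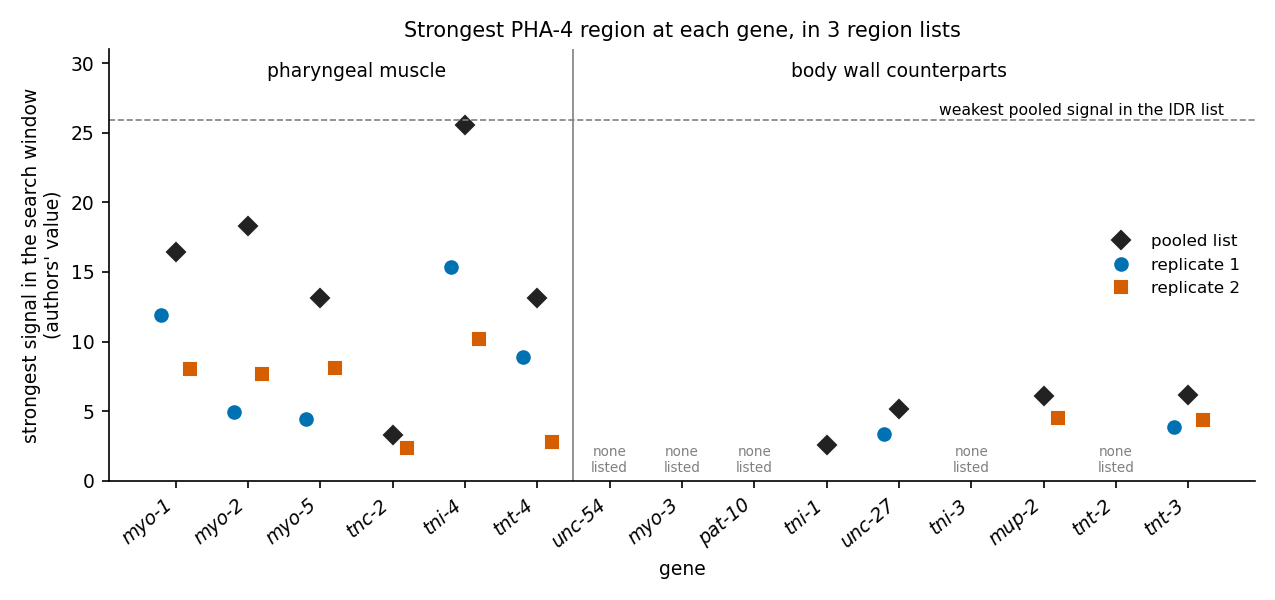
Strongest signal in the search window of each gene (vertical axis, the authors' value) in the pooled list (diamonds), replicate 1 (circles) and replicate 2 (squares), for the 6 pharyngeal genes and 9 counterparts of body wall and other muscle. Of the pharyngeal genes, 5 lie above every counterpart in the pooled list, while tnc-2 does not.

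The replicates shared a minority of the regions at these genes, as they did over the whole list. Of the 26 pooled regions in the 6 windows, 7 (26.9%) had a summit in both replicates within 150 bp, 8 had one in replicate 2 alone, 3 in replicate 1 alone and 8 in neither. Over all 30000 pooled regions, 7769 (25.9%) were matched in both and 7693 in neither. Matches in a single replicate were not split by replicate over the whole list, so the 8 and 3 at these genes are a description. The median absolute log2 ratio between replicates was 0.83 at the 7 regions and 0.62 over all regions matched in both. Each signal is on its own list's scale, so the ratios are only a description. Those at the intronic and exon 5 regions of myo-5 used the same replicate 1 region. The 7 regions were the strongest of each of the 5 genes other than tnc-2, the intronic region of myo-2 and the exon 5 region of myo-5. By position, 10 of the 26 lay upstream, 7 in introns, 8 in coding exons and 1 in a 3' UTR. Shares of these places over all pooled regions are not given here, so the split is a description. The 11 that ranked among the strongest 10000 pooled regions were 7 upstream regions, 3 intronic regions and the exon 5 region of myo-5.

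Forkhead heptamers were no more frequent at the members' summits than over the whole list. A whole heptamer stood within 50 bp of 8 of the 26 summits (30.8%), at myo-1, myo-2 and myo-5 and at no pooled summit of a troponin gene. All pooled regions had one in 33.4%, IDR regions in 48.2% and windows of the same 101 bp length 500 bp to either side of pooled summits in 26.5%. Among the members' 11 regions in the strongest 10000, 4 had one (36.4%), against 42.3% of the 8516 pooled regions between the end of the IDR list and rank 10000. Over the whole 310 bp region, 9 of these 11 held a heptamer (81.8%), against 75.5% of those 8516. The strongest regions of both tni-4 and myo-2 had theirs just outside the 50 bp limit, at 58 and 59 bp. The replicate 1 summit of tni-4 lay 24 bp nearer to the gene and had the heptamer within its own window. Of the replicates' own summits in the 6 windows, 7 of 13 in replicate 1 (53.8%, against 34.5% of all its regions) and 4 of 17 in replicate 2 (23.5%, against 34.3%) had a heptamer. The replicates thus stood on opposite sides of their own backgrounds.

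Single sequences from the forkhead set and of other factors were also counted on either strand within 50 bp of the summits. TGTTTGC stood at 1 of the 26 (3.85%, against 4.02% of pooled regions), in the first intron of myo-5, and TGTTTAC at none (2.9% of pooled regions). The NK-2 core AAGTG stood at 6 of the 26 (23.1%, against 24% of pooled regions), among them the strongest regions of myo-2 and myo-5. Among the members' 11 regions in the strongest 10000 it stood at 4 (36.4%). The share was 26% of the 8516 pooled regions of the same ranks and 27.8% of IDR regions. The GATA-factor sequence TGATAA stood at 3 (11.5%, against 11.7%), all at regions after rank 10000. The repeat GAGAGA stood at 5 (19.2%, against 12.3%). These 5 were all among the members' 11 regions in the strongest 10000, where the share was 45.5% against 19.5% of the 8516 pooled regions of the same ranks and 28.8% of IDR regions. They were the farther upstream region of myo-1, the first intron of myo-5, both upstream regions of tni-4 and the upstream region of tnt-4. With 11 regions in 5 genes these shares are a description.

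**Figure D3:**
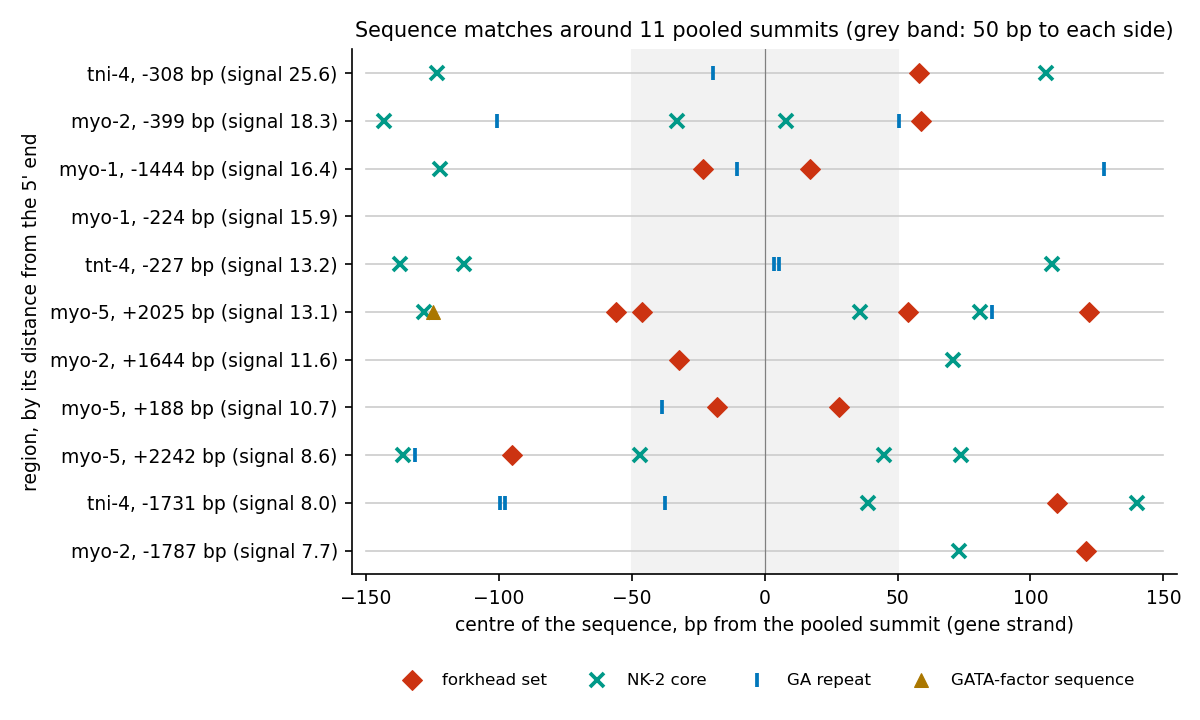
Positions of forkhead heptamers, the NK-2 core, the GA repeat and the GATA-factor sequence around the members' 11 pooled summits that ranked among the strongest 10000, in bp from the summit on the gene's strand (horizontal axis), with 1 region per line ordered by pooled signal. Heptamers of tni-4 and myo-2 upstream lie just outside the grey band of 50 bp to each side, at 58 and 59 bp.

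In the pooled list, the contractile genes of body wall and other muscle had weaker regions than the members other than tnc-2, or none. Of 9 counterparts (the myosins unc-54 and myo-3, troponin C pat-10, the troponin I genes tni-1, unc-27 and tni-3 and the troponin T genes mup-2, tnt-2 and tnt-3), none had an IDR summit. A pooled summit lay at 4 of them, none among the strongest 10000 and none matched in both replicates. Over all protein-coding genes, 8.69% had an IDR summit and 63.3% a pooled one. Among the strongest 10000 the share was 35.2%, and 30.3% had a match in both replicates. The strongest were tnt-3 (6.13, 1992 bp upstream of a 5' end), mup-2 (6.13, in its 3' UTR) and unc-27 (5.13, 1384 bp upstream). No list held a region in the window of unc-54, myo-3, pat-10, tni-3 or tnt-2. The pooled signal of the 5 members other than tnc-2, from 13.1 up, was above that of every counterpart. These same values set tnc-2 apart: its signal of 3.28 was below those of tnt-3, mup-2 and unc-27 and above that of tni-1 (2.56). In replicate 1 the same 5 members exceeded the strongest counterpart value, 3.89, and in replicate 2 it was 4, without tnt-4, that exceeded 4.50. The counterparts' windows had a median of 3757 bp and 0.160 pooled regions per kb, against 4027 bp and 0.318 for all protein-coding genes. Those of the 6 pharyngeal genes were longer, with a median of 7368 bp and 0.590 pooled regions per kb. Both gene lists were put together with earlier results of these data known, so the contrast is given as values with no test.

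Most genes listed as shared by the sarcomeres of both kinds of muscle also had pooled regions. Their use in both was not checked in these data. Of 14 genes listed, 13 were found by name (tmd-1 was not). Of the 13, 12 had a pooled summit, against 63.3% of all protein-coding genes. A summit among the strongest 10000 lay at 10, against 35.2%, and 10 had a match in both replicates, against 30.3%. An IDR summit lay at 1, against 8.69%. The single IDR summit lay in an intron of unc-22, the gene of the giant sarcomere protein twitchin (pooled signal 26.6, with strongest values in its window of 12.8 in replicate 1 and 10.5 in replicate 2), whose window of 40311 bp is far longer than those of the members. Next came the vinculin gene deb-1 (23.4, 321 bp upstream) and unc-45 (22.5, 230 bp upstream), which encodes a myosin chaperone. The median strongest signal was 15.3, against 14.8 for the 6 pharyngeal genes. In the 2000 bp upstream alone it was 11.1 against 14.8, and in the promoter window 8.65 against 14.5. The windows of the 13 had a median of 8594 bp, against 4027 bp for all protein-coding genes. They held 0.343 pooled regions per kb, near the 0.318 of all protein-coding genes and against 0.590 for the 6 pharyngeal genes.

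Genes of pharyngeal muscle excitability, such as channels, receptors and gap junction proteins, had a lower median strongest signal than the contractile genes. The values of single genes overlapped between the lists. Of 10 such genes, 8 had a pooled summit, against 63.3% of all protein-coding genes. A summit among the strongest 10000 lay at 4, against 35.2%, and 3 had a match in both replicates, against 30.3%. None had an IDR summit, against 8.69%. The strongest lay at eat-6, the alpha subunit of the sodium pump (pooled signal 18.1, 596 bp upstream, with strongest window values of 11.1 in replicate 1 and 7.74 in replicate 2). It was followed by the innexin gene inx-6 (9.26, shared with C36H8.1) and the calcium channel gene egl-19 (8.41, in an intron). No list held a region at the chloride channel gene avr-15 or the muscarinic receptor gene gar-3. The median strongest signal was 6.20, against 14.8 for the contractile genes, in windows with a median of 12467 bp. These windows held 0.176 pooled regions per kb, against 0.318 for all protein-coding genes.

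Against all protein-coding genes, the 5 members other than tnc-2 stood above the median of 4.01, and tnc-2 stood below it. A strongest pooled signal at least as high as that of tni-4 was found at 8.99% of protein-coding genes, and at least that of myo-2 at 15.9%. The same share was 18.4% for myo-1, 23.1% for tnt-4, 23.2% for myo-5 and 55.4% for tnc-2. In the 2000 bp upstream alone it was 8.25% for tni-4, 14.5% for myo-2, 16.7% for myo-1, 21% for tnt-4 and 42.5% for myo-5.

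**Figure D4:**
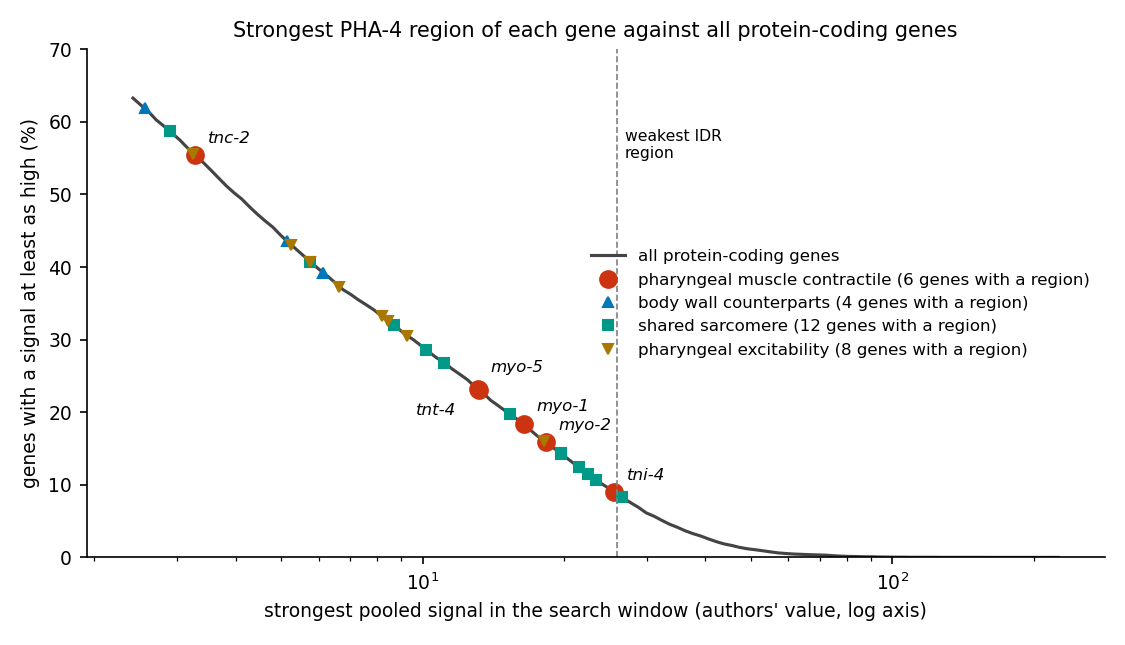
Share of protein-coding genes in percent (vertical axis) whose strongest pooled signal in the search window reaches the value on the horizontal axis (authors' value, log axis), with genes of 4 lists marked on the curve; genes without a region are not marked. The pharyngeal contractile genes other than tnc-2 lie between 8.99% and 23.2%, all to the left of the weakest signal of the IDR list.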

How the data were processed

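The labels give 1 group of 2 biological replicates, with library fragments of 150 to 350 bp. The authors deposited lists of regions in narrowPeak layout on ce10 and ce11. The ce11 lists were used, since ce11 has the sequence of WBcel235. Per the manifests, which were deposited with the lists, each replicate's regions and the pooled regions were called against a control, and the IDR list derives from the pooled and both replicates' lists. For the peak caller and the IDR threshold, both are not given in the sources used here. Signal in the seventh column is the authors' value, with no stated normalization. The −log10 q values the authors deposited reach a ceiling at strong regions and were not used for ranking, which went by signal. A q limit of 0.05 was added after seeing the data. The control was not analysed here, and depth is unknown, so no interval that needs it was computed. The labels give the replicates as separate biological samples.

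Genes came from Ensembl release 115 and sequence from the RefSeq copy of WBcel235. Python 3.11.15, NumPy 2.4.6, pandas 2.3.3 and matplotlib 3.10.9 were used, and the look-ups were checked on planted regions. A replicate's signal at a pooled region was that of its strongest summit within 150 bp, and 1 replicate region could match more than 1 pooled region. A region counted for every gene whose window held its summit. Named genes were all 6 members and, of each other list, genes with an IDR summit and the 3 strongest. The members and lists were chosen with earlier results of these data known. No test was run, since there is 1 group. Alternatives were other windows, matching distances, stricter lists and single replicates.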

Additional observations from a re-analysis of the deposited data

How the results depend on the processing

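The count of members with an IDR summit was 0 under every other window and stricter list tried. With single replicates cut to as many regions as the IDR list it ran from 0 to 1, the 1 being tni-4 with replicate 2 left out. The count with any pooled summit ran from 5 to 6 over all alternatives, single replicates and the q limit added after seeing the data included. The count with a match in both replicates was 5, but 3 in the promoter window and 2 with summits matched within 50 bp, and 4 or 5 under the other alternatives. The count of summits with a forkhead heptamer followed the width searched: 3 of 26 with 25 bp to each side and 14 with 100 bp, against 17.8% and 53.6% of all pooled regions. On the replicates' own summits it ran from 4 to 7, of 17 in replicate 2 and 13 in replicate 1. The strongest signal in the promoter window was that of the search window for myo-2, tni-4 and tnt-4, and was 15.9 for myo-1 and 10.7 for myo-5, while tnc-2 had no summit there. Signals of single replicates are on their own lists' scales. No paired analysis was possible because the study has 1 group. Precision is limited by 2 replicates of unknown depth, and no outlier check was possible in a group of 2.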
